A study of Mus musculus with 2 samples.

Results

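The genes described here are UBR7, the ubiquitin ligase deleted in this study, and 6 genes whose proteins write or erase the monoubiquitin mark on histone H2B, namely RNF20, RNF40, UBE2A, UBE2B, WAC and USP22. They were chosen by name, and their peaks are those of either peak list that overlap the span of a gene plus 5 kb on each side by at least 1 bp. This gave 15 of 101866 peaks in the WT list and 20 of 127444 peaks in the UBR7-KO list. The data are 2 H2BK120ub ChIP-seq libraries, 1 from WT cells and the other from Alb-Cre;UBR7fl/fl cells, here UBR7-KO. H2BK120ub is histone H2B carrying a single ubiquitin on a lysine near its end, and ChIP-seq sequences the DNA that an antibody against it pulls down. Both were primary liver cells, taken per the methods from male C57BL/6 mice 8 weeks old and described in the labels as conditionally immortalized and grown in culture. In UBR7-KO mice Cre is driven by the albumin promoter, so the deletion is directed to hepatocytes and other cells of the culture would keep the gene. No measurement of cell type markers accompanies the peaks, so the labelled cell type was not checked.

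With 1 library per genotype there is no replicate error, no test was run and each difference below is a difference between 2 libraries. The labels name mouse cells, but the peak positions are those of the human build hg19. Chromosomes 20 to 22, which a mouse gene table lacks, held 6059 WT peaks and 7213 UBR7-KO peaks. The genes are therefore the human genes at their hg19 spans, and how far the peaks speak for the mouse loci was not tested. The number of reads is unknown. The pileup, the fragments stacked over a peak, scales with it and was not compared between the libraries. The fold enrichment, the pileup over the local background of the same library, was at least 2 in every peak of both lists.

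Monoubiquitin is attached to H2B by a conjugating enzyme, UBE2A or UBE2B, acting with a ligase made of RNF20 and RNF40. WAC is an adaptor that links this ligase to RNA polymerase II, and USP22 is the deubiquitinase of the SAGA coactivator complex, which takes the ubiquitin off again. The mark is known to lie over the bodies of transcribed genes, beginning close to the start site. UBR7 carries a PHD finger and has been described as a further ligase for H2B.

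To ask where the mark lay at these genes, the peaks were first counted in the gene windows. A peak of each list was found at 6 of 7 genes, and UBE2A had none in either list. Peaks were also common elsewhere: cutting hg19 into tiles of 50 kb, 73.1% of tiles held a WT peak, 78.9% held a UBR7-KO peak and 14.2% held neither. The number of genes with a peak is therefore close to what the genome gives, and it does not set these genes apart. The windows add up to 301.8 kb and range from 19.95 kb at UBE2A to 100.6 kb at WAC, so the tiles are only a rough yardstick.

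WT peaks covered 62.7 kb of the windows (20.8%) and UBR7-KO peaks covered 49.4 kb (16.4%), a ratio of 0.788. Over all of hg19 the covered shares were 11.6% and 10.3%, a ratio of 0.885. In the full lists the lower sum in UBR7-KO rested on RNF40. Without it, the other windows had 13.8% of their length covered in WT against 14.9% in UBR7-KO, which gives 1.08. The peaks numbered 1.33 times as many in UBR7-KO as in WT at these genes, against 1.25 times over the lists. UBR7, RNF20, RNF40 and USP22 were covered over less length in UBR7-KO, and UBE2B and WAC over more, an order that turned under at least 1 other setting of flank, threshold, list size, merging or peak length at each of them except RNF40. Among all tiles whose cover differed, 53% had more cover in UBR7-KO.

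**Figure D1:**
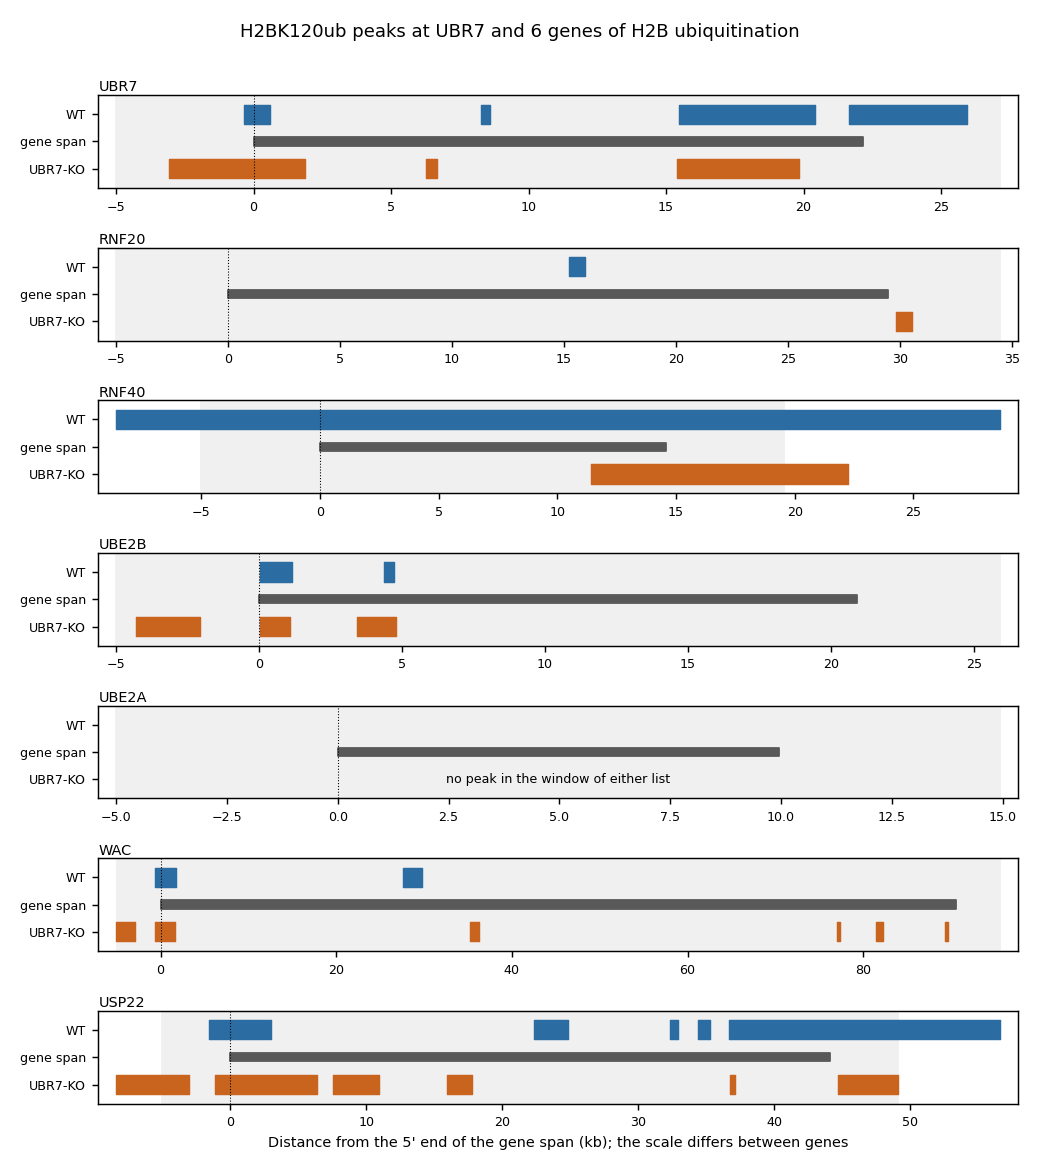
Each panel shows 1 gene with its span (grey bar) and the window of the span plus 5 kb each side (light grey), the WT peaks above (blue) and the UBR7-KO peaks below (orange), with distance from the 5' end in kb on the horizontal axis. Peaks of both lists lie over the 5' ends of UBR7, WAC and USP22 and just after that of UBE2B. The WT peak of 37.2 kb covers all of RNF40, and UBE2A has no peak.

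UBR7 lies on chromosome 14 (93673401 to 93695559) and spans 22.2 kb. The WT list had 4 peaks there and the UBR7-KO list had 3. A peak stood over the 5' end of UBR7 in both lists. In WT this peak was 936 bp long and ran from 337 bp before the 5' end to 598 bp after it. In UBR7-KO it was 4951 bp long, from 3077 bp before to 1873 bp after, which is 5.29 times the WT length and takes in the WT peak whole. Such a peak does not test the deletion, because an interval of ChIP-seq cover around the start of a gene carries no information on missing exons, and the deleted exons are not given in the sources used here.

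The second region in common lay toward the 3' end of UBR7. The WT peak began 15455 bp after the 5' end and was 4947 bp long, and the UBR7-KO peak began at 15384 bp and was 4446 bp long. They shared 4375 bp, or 88.4% of the WT peak and 98.4% of the UBR7-KO peak. A WT peak of 4318 bp over the 3' end had no UBR7-KO counterpart. Inside the gene, a WT peak of 312 bp and a UBR7-KO peak of 419 bp lay at different places. In sum UBR7 was covered over 10.5 kb (32.7%) in WT and 9.82 kb (30.5%) in UBR7-KO, and 5.31 kb was common to both. This was above its surroundings in both lists: the gene with 500 kb on each side had shares of 26.9% (WT) and 19.4% (UBR7-KO), and chromosome 14 had 10.3% and 9.56%. The order and the gap at UBR7 varied with the setting. Within the gene span alone, without the flanks, 28.8% was covered in WT and 30.4% in UBR7-KO. The difference in the window, UBR7-KO minus WT, was -2.17 percentage points. It narrowed to -1.65 with flanks of 10 kb and to -0.284 with flanks of 50 kb. With flanks of 500 kb, a setting added after seeing the data, it widened to -7.50. With lists of equal size it was -16.0. That setting drops the weakest peaks of the UBR7-KO list only, so it could only lower UBR7-KO cover. Here it dropped the UBR7-KO peak of 4446 bp, at percentile 5.12 of fold enrichment. When pileups of 3 times the background or more were kept, the difference was -13.4. It then came from the WT peak of 4318 bp alone, which stood at 3.04 times.

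RNF20, the first subunit of the H2B ligase, lies on chromosome 9 (104296133 to 104325626) and was nearly bare. Its WT peak measured 725 bp and lay inside the gene, 15218 bp after the 5' end. Its fold enrichment of 2.88 ranked 4019 in the WT list, at percentile 96.1. Its UBR7-KO peak of 688 bp lay past the 3' end, with a fold enrichment of 2.05 at percentile 18.4, and the span of RNF20 itself held no UBR7-KO peak. The covered shares of the window were 1.84% in WT and 1.74% in UBR7-KO. The surroundings differed more. Within 500 kb of RNF20 the WT list had 11 peaks covering 1.49% and the UBR7-KO list had 40 peaks covering 5.69%, both below chromosome 9 as a whole (11.6% and 10.2%).

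RNF40, the partner of RNF20, lies on chromosome 16 (30773066 to 30787628) and showed the widest gap between the libraries. In WT a single peak of 37.2 kb began 8585 bp before the 5' end and ended 14.1 kb beyond the 3' end, so 100% of the window of 24.6 kb was covered. By length this peak was at percentile 99.4 of the WT list. How often other WT peaks this long lose as much cover was not analysed here. In UBR7-KO the window held a single peak of 10.8 kb, which began 11425 bp after the 5' end, inside the gene, and ended 7.68 kb beyond the 3' end. It covered 8.14 kb of the window (33.1%) and lay entirely within the WT peak. Outside the window, another UBR7-KO peak of 12.7 kb began 9.03 kb beyond the 3' end and shared 5.07 kb with the WT peak, so UBR7-KO peaks covered 42.6% of the whole WT peak. Of the gene span, WT peaks covered 100% and the UBR7-KO peak 21.5%, and the 5' end of RNF40 lay 11425 bp from the nearest UBR7-KO peak. The window was covered over 3.02 times the length in WT.

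The surroundings had the same order with a smaller gap. The gene with 500 kb on each side had shares of 53.0% (WT) and 42.7% (UBR7-KO), a ratio of 0.807, against 0.331 in the window and 0.910 over chromosome 16. The lead of WT at RNF40 held when neighbouring peaks within 5 kb were merged. Leaving out peaks with a pileup under 3 times the background kept the WT peak, at 3.06 times, and dropped the UBR7-KO peak, at 2.83. The resulting difference of -100 percentage points rests on the limit falling between these single peaks. At a fold enrichment of at least 2.5 neither list kept a peak there, since the WT peak reached 2.49 (percentile 82.2) and the UBR7-KO peak 2.13 (percentile 42.9). The background, recovered from the pileup and the fold enrichment and scaling with depth as the pileup does, was 2.58 at the WT peak and 1.59 at the UBR7-KO peak. A lower depth and less of the mark cannot be told apart here.

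**Figure D2:**
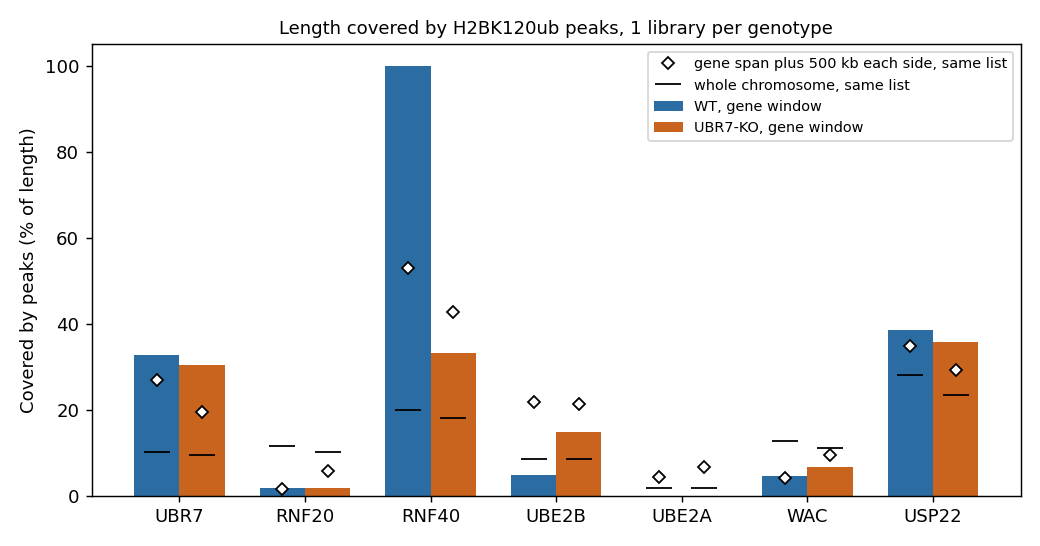
Bars give the percent of each gene window covered by WT peaks (blue) and UBR7-KO peaks (orange), diamonds the percent covered in the gene span plus 500 kb on each side, and dashes the percent covered in the whole chromosome, always in the list of the bar. The bars of RNF40 reach 100% (WT) and 33.1% (UBR7-KO), whereas those of UBR7 (32.7% and 30.5%) and USP22 (38.6% and 35.8%) lie closer together in the full lists.

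The conjugating enzymes UBE2A and UBE2B, which are close paralogs, differed from each other in both lists. UBE2B lies on chromosome 5 (133706870 to 133727799). Its first peak began 33 bp after the 5' end in WT and 43 bp after it in UBR7-KO, and measured 1111 bp and 1050 bp. Their edges were 10 bp and 51 bp apart. A second pair lay 4356 bp (WT, 377 bp long) and 3435 bp (UBR7-KO, 1362 bp long) after the 5' end. A further UBR7-KO peak of 2206 bp lay upstream of the gene and had no WT counterpart.

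With these, 4.81% of the UBE2B window was covered in WT and 14.9% in UBR7-KO, a ratio of 3.10. Much of this excess was the upstream peak of 2206 bp, which lay wholly in the flank. Within the gene span alone the shares were 7.11% in WT and 11.5% in UBR7-KO. With the gene span cut into 10 equal bins from 5' to 3', all cover within it fell in bins 1 to 3 in both lists. The surroundings did not show the excess: with 500 kb on each side the shares were 21.8% and 21.4%. When the flanks were widened to 50 kb, the covered share at UBE2B differed by -2.31 percentage points, UBR7-KO minus WT, so the order turned.

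UBE2A lies on chromosome X (118708430 to 118718379) and is the shortest of the genes at 9.95 kb. It had no peak in its window in either list. The nearest peak was 19.9 kb from the gene in WT and 28.6 kb in UBR7-KO. Chromosome X was thinly covered throughout, at 1.94% in WT and 1.75% in UBR7-KO, and 40.1% of its tiles of 50 kb held no peak in either list. With 500 kb on each side UBE2A was covered at 4.33% and 6.78%, above X as a whole. The absence of a peak is an absence above the threshold of the peak caller, and the signal below it is not analysed here.

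WAC lies on chromosome 10 (28821422 to 28912041) and is the longest gene at 90.6 kb. Its 5' end carried a peak in both lists at nearly the same place. The WT peak measured 2416 bp, from 618 bp before the 5' end to 1797 bp after it. The UBR7-KO peak measured 2313 bp, from 607 bp before to 1705 bp after, and lay whole within the WT peak. The edges were 11 bp and 92 bp apart. These genes held 6 one-to-one pairs, where neither peak overlapped any further peak of the other list. Of these, 2 had both edges within 100 bp, those just after the 5' end of UBE2B and over that of WAC. Over the whole lists this held for 3.47% of 29927 such pairs. The limit of 100 bp was added after seeing the data, so setting the 2 pairs against that share is not a test.

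Although its position was nearly the same, the peak at the start of WAC held opposite ranks in the lists. In WT its fold enrichment of 3.22 ranked 1119 of 101866, at percentile 98.9. In UBR7-KO its fold enrichment of 2.003 ranked 125645 of 127444, at percentile 1.41. The fold enrichment adds 1 to pileup and background, which lowers it more where the background is low. Without that addition, the pileup was 4.16 times the background in WT (percentile 98.6) and 2.58 times in UBR7-KO (percentile 3.80), so the contrast in rank did not rest on it. The UBR7-KO value of 2.003 is close to 2, the lowest in its list. How often other paired peaks differ as much in rank was not analysed here.

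Beyond the start, no peak in the WAC body was common to both lists. WT had 1 further peak of 2193 bp, 27633 bp after the 5' end, and UBR7-KO had 4 peaks of 310 to 919 bp inside the gene, the first 35285 bp after the 5' end, and 1 of 2205 bp upstream. The covered share of the window was 4.58% in WT against 6.76% in UBR7-KO. Within 500 kb the shares were 4.15% and 9.60%. When the UBR7-KO list was limited to as many peaks as the WT list by fold enrichment, the order at WAC reversed, to a difference of -1.03 percentage points. This limit could only lower UBR7-KO cover.

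USP22 lies on chromosome 17 (20902910 to 20946984) on the reverse strand and spans 44.1 kb. Its cover differed more in place than in extent at the thresholds of the deposited lists. The window was covered over 20.8 kb (38.6%) in WT and 19.4 kb (35.8%) in UBR7-KO. Of this, 8.86 kb was common to both, which is 42.5% of the WT cover and 45.7% of the UBR7-KO cover. Over all the gene windows together, the common cover was 41.5% of the WT cover and 52.7% of the UBR7-KO cover. The WT share at USP22 was thus close to that of the windows together, and the UBR7-KO share was lower. The common share over the whole lists was not analysed here. The small difference of -2.74 percentage points, UBR7-KO minus WT, depended on the setting. It widened to -14.0 with flanks of 50 kb, and to -24.7 with lists of equal size, which could only lower UBR7-KO cover. The 5' end of USP22 carried a peak of 4516 bp in WT, from 1567 bp before it to 2948 bp after, and one of 7472 bp in UBR7-KO, from 1138 bp before to 6333 bp after. They shared 4087 bp.

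From there, UBR7-KO cover continued through the first part of USP22, with a peak of 3328 bp at 7574 bp and one of 1816 bp at 15954 bp after the 5' end, where WT had none. In contrast, the 3' part was covered in WT by a peak of 20.0 kb that began 36636 bp after the 5' end and passed the 3' end by 12.6 kb. In UBR7-KO this stretch held a peak of 387 bp inside the gene and another of 4407 bp beyond the 3' end, and a further UBR7-KO peak of 5724 bp, outside the window, lay whole within the WT peak from 50722 bp after the 5' end. Together these covered 52.6% of the WT peak. Bin 1 of the span had 66.9% of its length covered in WT against 100% in UBR7-KO, bin 2 had 0% against 71.9%, and bin 10 had 100% against 0%.

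**Figure D3:**
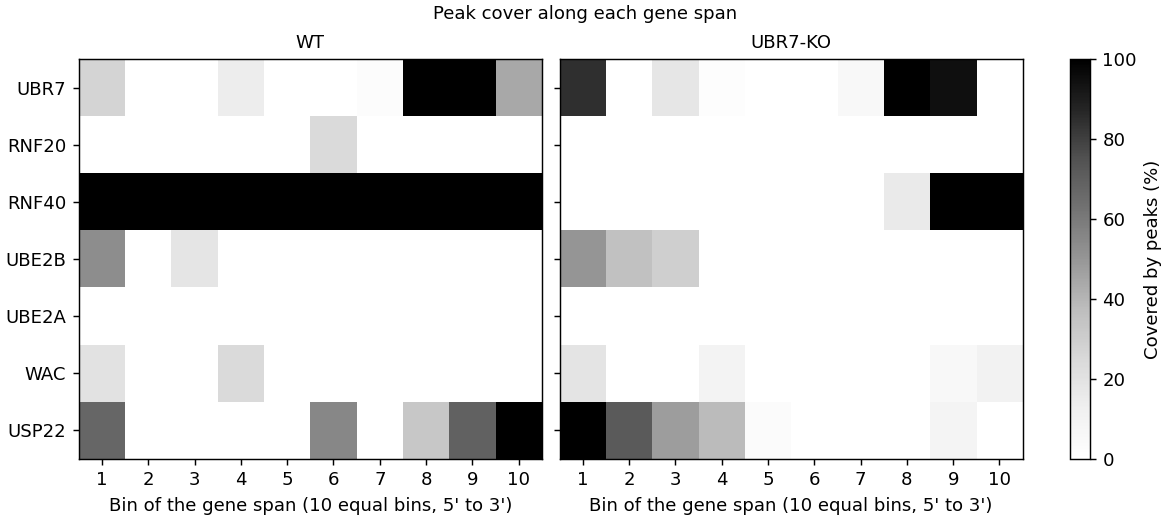
Shading gives the percent covered by peaks in each of 10 equal bins of the gene span, from 5' (1) to 3' (10), with 1 row per gene and 1 panel per list. USP22 has cover in bins 1 to 5 and 9 in UBR7-KO but in bins 1, 6 and 8 to 10 in WT, and UBR7 is darkest in bins 8 and 9 in both panels.

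The 5' ends were then compared across the genes. A peak covered the 5' end of 4 genes in WT (UBR7, RNF40, WAC and USP22) and of 3 in UBR7-KO (UBR7, WAC and USP22). With a peak within 2 kb allowed, UBE2B was added, giving 5 and 4 genes. RNF40 was thus the gene at which the lists differed, while RNF20 and UBE2A lacked a peak at the 5' end in both. How often the starts of other human genes carry a peak in these lists was not analysed here. In WT bin 1 of the span was touched by peaks in 5 genes, with a mean cover of 38.1% over the 7 genes. In UBR7-KO it was touched in 4 genes, with a mean of 36.2%. In bin 6 the mean cover was 25.7% in WT, from RNF40, USP22 and RNF20, and 0% in UBR7-KO. No other bin lacked UBR7-KO cover, and bin 6 is named for that reason. Bin 2 was the only bin with a higher mean in UBR7-KO, 15.4% against 14.3% in WT. The single WT peak over RNF40 adds to the WT mean of every bin.

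Next, the peaks were matched by position. Of the 15 WT peaks, 8 (53.3%, exact 95% binomial interval 26.6 to 78.7) overlapped a UBR7-KO peak, against 40.2% of the WT list. Of the 20 UBR7-KO peaks, 10 (50%, interval 27.2 to 72.8) overlapped a WT peak, against 35.2% of the UBR7-KO list. The intervals cover counting error only and hold the shares of the whole lists. They treat the peaks as independent, although peaks cluster within genes and overlapping pairs are counted from both lists. At UBE2B both WT peaks had a counterpart, and at RNF20 the peaks of neither list had one.

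The strength of the peaks was then set against that of their own lists. The median fold enrichment of the member peaks was 2.36 in WT, where the list median was 2.20, and 2.09 in UBR7-KO, where the list median was 2.15. Above the median of their list lay 10 of the 15 peaks in WT but 3 of the 20 in UBR7-KO. In the UBR7-KO list 5 of the 20 lay below the 10th percentile, with the peak at the 5' end of USP22, at 2.0004, ranking 127238 of 127444. In the WT list 0 of the 15 did. The value 2.5 was met or passed by 3 WT peaks, at RNF20, WAC and USP22, and by 1 UBR7-KO peak, at USP22 (387 bp long, 2.65). Over the lists this held for 16.9% in WT and for 9.77% in UBR7-KO. By the pileup over the background without the added 1, the same numbers of peaks, 10 and 3, lay above the list medians, and the median percentile was 67.3 (WT) and 17.1 (UBR7-KO), against 71.2 and 32.0 by fold enrichment.

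UBE2B went against this order. Its peak just after the 5' end stood at percentile 27.2 in WT, with a fold enrichment of 2.09, and at percentile 78.9 in UBR7-KO, with 2.34. At the 5' end of UBR7 the percentiles were 62.4 in WT and 20.6 in UBR7-KO, and at that of USP22 39.8 and 0.161. Away from its 5' end USP22 was mixed. Its UBR7-KO peak of 387 bp, at percentile 95.2, outranked the WT peak of 20.0 kb that holds it, at 68.1. The UBR7-KO peak of 4407 bp within the same WT peak stood at 9.46. A UBR7-KO peak of 1816 bp without a WT counterpart stood at 72.8.

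**Figure D4:**
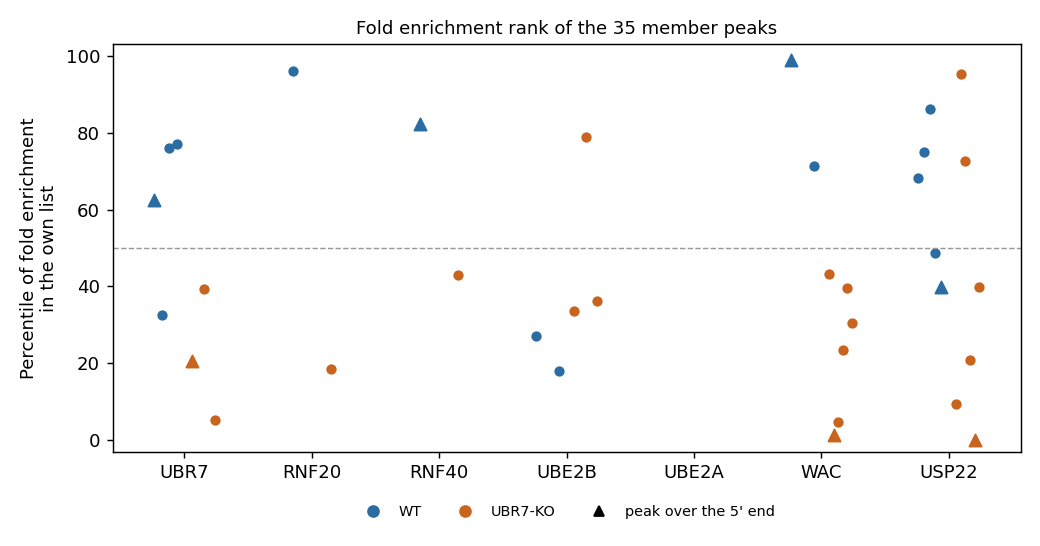
Each point is 1 of the 35 peaks, placed by the percentile of its fold enrichment among all peaks of its own list (0 lowest, 100 highest), with WT in blue, UBR7-KO in orange, triangles for peaks over the 5' end, and a dashed line at the list median. The peak at the start of WAC is at percentile 98.9 in WT and 1.41 in UBR7-KO, and all 3 UBR7-KO peaks of UBE2B (up to 78.9) lie above both of its WT peaks.

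The lengths of the peaks were closer. The median was 2193 bp (WT) and 2010.5 bp (UBR7-KO), above the list medians of 1584.5 and 1361.5 bp. Peaks over 10 kb numbered 2 in WT, at RNF40 and USP22, and 1 in UBR7-KO, at RNF40. By length they stood at percentiles 99.4 and 97.6 of the WT list and 96.8 of the UBR7-KO list. The share of all peaks over 10 kb in each list was not analysed here, so the counts of 2 and 1 cannot be judged against it. The shortest were a WT peak of 312 bp at UBR7 and a UBR7-KO peak of 310 bp at WAC. Of the member peaks, 6 WT and 7 UBR7-KO peaks were under 1000 bp. Such lengths are common in the lists: a WT peak of 936 bp stood at length percentile 33.4 and a UBR7-KO peak of 919 bp at 37.0.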

How the data were processed

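Members and measures were chosen with earlier results of these data known. Per the methods, the authors aligned reads with BWA aln to hg19 and ran MACS separately for the 2 libraries, with a q-value limit that is not given; the submitters' processing notes name Bowtie 1.1.2 instead. Use of a control library and the mode of the caller are not given in the sources used here. The deposited lists hold positions, a pileup (signal) and a fold enrichment (ratio) per peak, both computed by the authors' peak caller. After 6 blank rows were removed from the UBR7-KO list, peaks were intersected with the 7 gene spans plus 5 kb (positions from 1, both ends included). The strand of each gene is general knowledge and was not in the files. The background was recovered as the pileup plus 1, divided by the fold enrichment, minus 1, taking the pileup as a mean over the peak. All 7 genes are named, each by its longest and strongest peaks and those at the 5' end. Chromosome lengths came from GenomeInfoDb 1.38.1, and computation used Python 3.11.15, scipy 1.17.1 and pandas 2.3.3. Interval functions were checked on simulated peaks with known overlaps. Groups follow the genotype labels. Alternatives changed the flank, thresholds, list size, merging, peak length, overlap and tile size. Neighbourhoods of 500 kb, edges within 100 bp, the ratio without the added 1 and leaving out RNF40 or USP22 were added after seeing the data. The planned protein comparison was not made, since no protein sequences were used here, and no hg19 sequence was printed for the same reason.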

Additional observations from a re-analysis of the deposited data

How the results depend on the processing

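The read depth behind the peaks is unknown, and it limits which short or weak peaks either list holds. No paired analysis was possible because WT and UBR7-KO have 1 library each, and no replicate was left out. The causes of the changes below were not tested beyond what each alternative removes by construction.

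With flanks of 50 kb the WT and UBR7-KO peaks numbered 44 and 58. A fold enrichment of at least 2.5 left 3 and 1 peaks at 3 and 1 genes, covering 1.23% and 0.128% of the windows (ratio 0.104), and 0% of either had a counterpart. Keeping pileups of 3 times the background or more left 5 WT peaks, covering 10.8%, of which 20% had a counterpart, and 3 UBR7-KO peaks at 2 genes, covering 1.08%, of which 0% had one (ratio 0.0998). With lists of equal size, made by dropping the weakest UBR7-KO peaks only, UBR7-KO peaks covered 9.68% (ratio 0.466). That setting could only lower UBR7-KO cover, also in the differences by gene below. Merging within 5 kb left 13 UBR7-KO peaks and reversed the ratio to 1.02. Peaks of at least 1000 bp numbered 9 and 13. Requiring 50% of both peaks gave 20% of UBR7-KO peaks a counterpart, and both edges within 100 bp did so for 13.3% in WT and 10% in UBR7-KO. Without RNF40, WT cover was 13.8% and the ratio reversed to 1.08. Without RNF40 and USP22, the shares were 7.77% and 9.83% and the ratio 1.26, also reversed.

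By gene, the difference in covered share, UBR7-KO minus WT in percentage points, reversed in these cases. At UBR7 it became 1.63 without flanks, 7.61 with merging and 0.410 with peaks of at least 1000 bp. At RNF20 it became 1.77, 4.85 and 4.19 with flanks of 10, 50 and 500 kb, and 9.92 with merging. At UBE2B it became -2.31 and -0.342 with flanks of 50 and 500 kb. At WAC it became -2.40 under both thresholds, -1.03 with lists of equal size and -0.148 with peaks of at least 1000 bp. At USP22 it became 3.003 when pileups of 3 times the background or more were kept. Other settings widened the lead of WT at UBR7, to -16.0 (lists of equal size) and -13.4 (3 times the background), and at USP22, to -24.7 (lists of equal size). RNF40 did not reverse under any of these, with 0 left in both lists at a fold enrichment of at least 2.5. The other 58 values over all genes stayed within their limits. These were a fold range around the main value or, for shares with a counterpart, the exact binomial interval. That interval is wide, 26.6 to 78.7 for WT. The WT share of 53.3% thus counted as unchanged at 33.3% with lists of equal size and at 26.7% when 50% of both peaks was required.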
